A study of Mus musculus with 24 samples.

Results

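The 9 genes described here belong to the control of proteases: 8 serpins (Serpinb9, Serpinb9b, Serpinb6a, Serpinb6b, Serpinb1a, Serpina3f, Serpina3g and Serpine2) and Srgn, which encodes the granule proteoglycan serglycin. They were chosen by name, as the rows whose gene symbol equals one of these 9, and make up 9 of the 56748 genes in the count table. All 9 are protein coding, all 9 passed the filter on low counts, which kept 15885 genes, and 69 genes in the table have a symbol that starts with Serpin. Messenger RNA was sequenced in 24 libraries of wild-type mouse T cells, 6 from each of 4 kinds of culture: polarized Th1, Th17 and regulatory T cells (Treg), and activated CD8+ T cells (CD8). In each kind of culture 1 library had the vehicle DMSO and the other 5 each had 1 agonist of the kappa opioid receptor (KOR), a receptor coupled to inhibitory G proteins. These perhydroquinoxaline derivatives, called WMS-64, WMS-75, WMS-76, WMS-83 and WMS-200 here, were given at 0.1 µM, and the cultures lasted at most 5 days. No combination of cell type and treatment was repeated, and the labels used here state neither age nor strain of the mice.

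The column names also carry a WT number of unexplained meaning. Every Th1 library had number 4 and every CD8 library number 2. The Th17 culture with DMSO had number 2, that with WMS-83 number 3, and the remaining 4 had number 1. Among Treg, WMS-200 and DMSO shared number 3, and the remaining 4 had number 2. Differences between Th1 and another cell type therefore cannot be told apart from differences between WT numbers. Number 1 occurred in Th17 alone, so differences of Th17 from Treg and CD8 can be told apart from the WT number only in part. The Th1 library with WMS-83 has a title that names Th17, while its source name and column name Th1; it was kept as Th1, and every member count stayed within 1.5 times when it was left out. No label says that libraries came from separate cultures or animals, so SDs, standard errors and p-values measure only the spread between these libraries.

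Serpins are inhibitors that offer a bait loop to a protease and trap the enzyme on it by an irreversible change of shape. Cytotoxic lymphocytes load granzymes and perforin onto the sulphated sugar chains of serglycin inside their granules, and they hold cytosolic serpins of clade B that can neutralise granzymes that leak back into the cell. Members of clades A and E in this set act on cathepsins and on secreted proteases of clotting and matrix breakdown.

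Library totals ran from 15188284 to 21946887 counts. The 9 genes took 0.245% ± 0.00406 of counts in CD8, 0.185% ± 0.0112 in Th1, 0.0493% ± 0.00339 in Treg and 0.0418% ± 0.00472 in Th17 (SD, n = 6 each). Levels are CPM, counts scaled to library size and edgeR's TMM factors, and differences are log2 fold changes with their standard error (SE) from edgeR's quasi-likelihood test, called at a Benjamini-Hochberg adjusted p under 0.05 over all 15885 genes. Markers mostly followed the labelled cell types. Foxp3 was highest in Treg (282 ± 79.9 CPM), Il17f in Th17 (831 ± 121 CPM) and Cd8a in CD8 (389 ± 17.5 CPM). Ifng was high in both Th1 (592 ± 73.0 CPM) and CD8 (1369 ± 57.3 CPM). Of 4 markers listed for Treg, 1 was called higher in Th17 than in Treg and 1 higher in CD8 than in Treg. Among 4 markers for Th1, 1 was called lower in Th1 than in Th17 and 1 lower than in Treg. Cd8a also reached 33.9 to 111 CPM in the Th17 libraries, above the 12.7 to 14.7 CPM of Th1. In the CD8 libraries Cd4 was at 181 ± 11.9 CPM, against 754 ± 21.3 CPM in Th1. The part of any CD8 cells in the Th17 values, or of any CD4 cells in the CD8 values, was not tested. Summed markers of neutrophils and mast cells, which are rich in serglycin and in targets of Serpinb1a, stayed at or below 1.09 CPM in every library, and S100a9 and Ms4a2 had no counts. B cell markers summed to between 3.34 and 13.4 CPM, and myeloid markers to between 10.5 and 25.7 CPM, mostly Cd68. The part of these cells in the results was not tested, and in bulk RNA fewer cells of a type and less RNA per cell cannot be told apart.

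**Figure D1:**
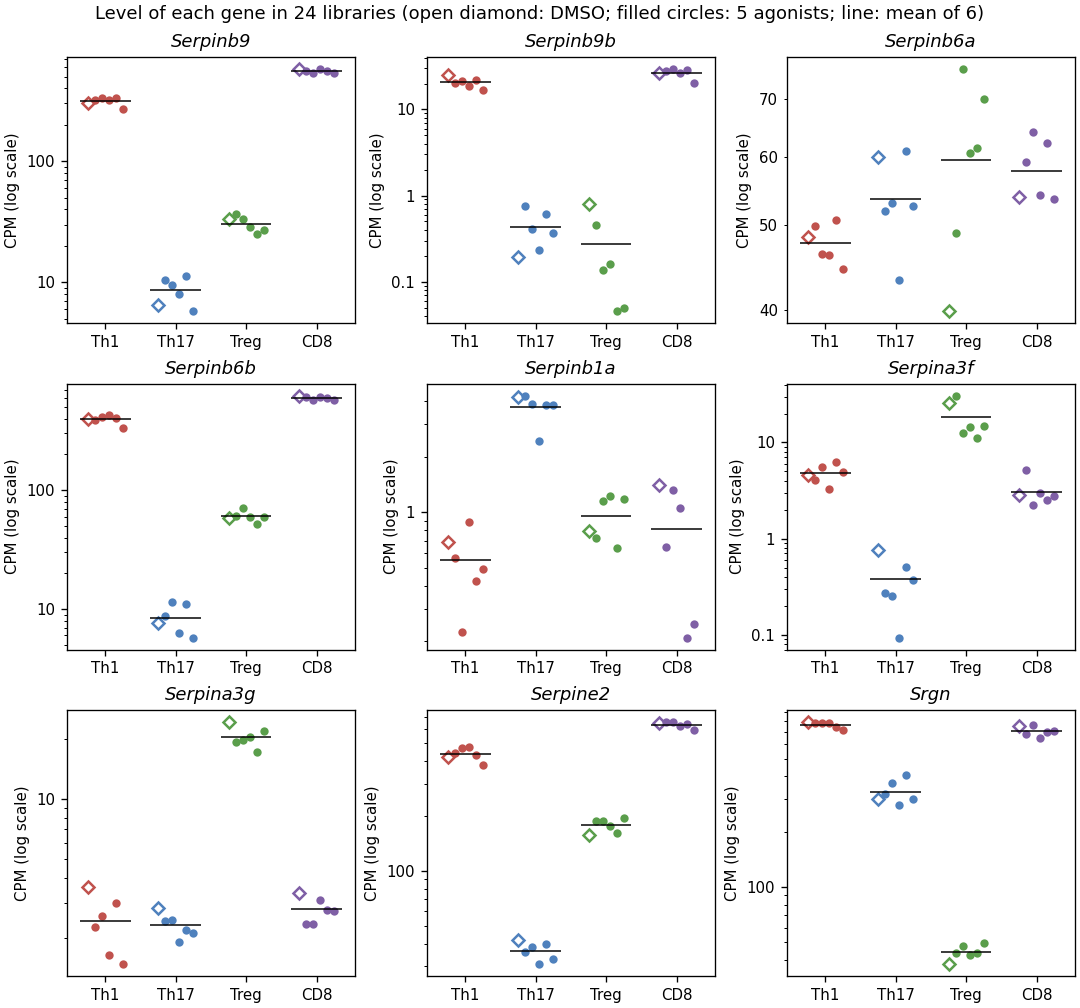
CPM of each of the 9 genes (log axis) in the 6 libraries of each cell type; open diamonds are DMSO, filled circles the 5 agonists and lines the mean of 6. Serpinb9, Serpinb6b and Serpine2 were highest in CD8 and lowest in Th17, Srgn was lowest in Treg, and Serpina3f and Serpina3g were highest in Treg.

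Of the granzyme inhibitors of clade B, Serpinb9 and Serpinb6b were graded over the 4 cell types, and Serpinb9b was not. Serpinb9 (ENSMUSG00000045827; chromosome 13, 33187233 to 33201940, plus strand, in the count table's own coordinates) encodes the inhibitor of granzyme B known as SPI6. Its level was lowest at 532, median 552 and highest at 576 CPM in CD8, against 270, 320 and 332 CPM in Th1. In Treg it was 25.2, 30.8 and 36.4 CPM, and in Th17 5.82, 8.79 and 11.4 CPM. All 4 groups were separate, with every CD8 library above every Th1 library, and so on down to Th17. Each step in that order was called by edgeR: CD8 over Th1 by log2 0.83 ± 0.09 (adjusted p = 1.3e-07), Th1 over Treg by 3.35 ± 0.10 (9.25e-20) and Treg over Th17 by 1.83 ± 0.11 (4.38e-14). The mean in CD8 was 64.2 times that in Th17.

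Serpinb9b (ENSMUSG00000021403; chromosome 13, 33211399 to 33225867, plus strand), which lies 9458 bases beyond Serpinb9 in the same orientation and encodes an inhibitor of granzyme M, was present in the same 2 cell types at a far lower level. It was 20.4, 27.3 and 29.4 CPM (lowest, median, highest) in CD8 and 16.8, 20.8 and 24.9 CPM in Th1. In Th17 it was 0.192 to 0.760 CPM and in Treg 0.0457 to 0.793 CPM, which rest on 48 and 33 counts in all. The CD8 and Th1 libraries overlapped, as did Th17 and Treg, and the first 2 lay wholly above the last 2. Th1 exceeded Th17 by log2 5.57 ± 0.26 (edgeR adjusted p = 2.14e-15), whereas CD8 against Th1 (0.36 ± 0.17, adjusted p = 0.165) and Th17 against Treg (0.69 ± 0.43, adjusted p = 0.15) did not pass. CD8 against Th1 passed with limma-voom (adjusted p = 0.0171), without the filter (0.048) and with only those 2 cell types (0.000313). Th17 against Treg passed with limma-voom (0.93, adjusted p = 0.033) and with only the Treg libraries of WT number 2 (2.06, 0.000163), and it was -0.35 (0.431) with only those of WT number 3. Per kilobase of gene length, Serpinb9 stood at 158 ± 5.44 CPM per kb in CD8 and Serpinb9b at 7.95 ± 0.98 CPM per kb (SD, n = 6). Reads from such close copies may have been split between them by the counting, so the Serpinb9b values are uncertain.

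The starts of this neighbouring pair are shown because both genes were high in the same 2 cell types and differed in level. Each line is the RefSeq window from 250 bases before to 50 after a transcription start in GRCm38.p6, 5′ to 3′ on the gene's strand, with matches to GAAANNGAA (an interferon-response-like motif) or TTCNNNGAA (the GAS motif of STAT factors), on either strand, in capitals. The count table uses other coordinates, which equal those of GRCm38 for 0 of the 9 genes, and the 2 sets are not mixed here.
Serpinb9, chr13:33004291-33004590, plus strand: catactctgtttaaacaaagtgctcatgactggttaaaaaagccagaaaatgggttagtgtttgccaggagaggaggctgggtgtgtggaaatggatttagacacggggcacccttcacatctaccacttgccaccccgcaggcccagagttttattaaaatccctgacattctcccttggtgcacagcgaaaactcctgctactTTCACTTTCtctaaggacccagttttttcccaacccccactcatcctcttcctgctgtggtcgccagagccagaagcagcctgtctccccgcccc
Serpinb9b, chr13:33027164-33027463, plus strand: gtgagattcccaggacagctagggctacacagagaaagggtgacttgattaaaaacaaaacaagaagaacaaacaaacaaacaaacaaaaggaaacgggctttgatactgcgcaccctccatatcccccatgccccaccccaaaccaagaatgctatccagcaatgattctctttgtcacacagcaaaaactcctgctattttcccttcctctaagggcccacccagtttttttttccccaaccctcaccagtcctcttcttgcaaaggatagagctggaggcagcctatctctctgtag
The 2 windows aligned over 214 columns with 150 identical bases (70.1%). Serpinb9 had 1 match to GAAANNGAA, read on the minus strand as TTCACTTTC and starting 45 bases before the start site, and 1 match to the Runx motif TGTGGT 10 bases after it; Serpinb9b had no match to either. GAAANNGAA occurred in 8.56% and TGTGGT in 16.8% of all 32851 RefSeq windows of this length, both strands counted. The motifs were picked after the windows had been read, and a match is a description of letters only.

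Serpinb6b (ENSMUSG00000042842; chromosome 13, 33149192 to 33163050, plus strand), an inhibitor of granzyme A, lay 24182 bases before Serpinb9 and followed the same order. Its level was 571, 606 and 623 CPM in CD8 and 335, 402 and 427 CPM in Th1 (lowest, median, highest). In Treg it was 52.3, 59.8 and 71.4 CPM and in Th17 5.76, 8.24 and 11.4 CPM. Again no 2 groups overlapped. CD8 exceeded Th1 by log2 0.60 ± 0.09 (edgeR adjusted p = 2.26e-05), Th1 exceeded Treg by 2.71 ± 0.10 (3.69e-18) and Treg exceeded Th17 by 2.83 ± 0.11 (1.88e-17). Per kilobase it was the highest of the 8 serpins in CD8, at 264 ± 9.92 CPM per kb against 158 ± 5.44 for Serpinb9 (SD, n = 6). The distance of Treg from Th17 differed between these 2 neighbours: the mean in Treg was 7.10 times that in Th17 for Serpinb6b and 3.56 times for Serpinb9, a contrast of 2 genes that was not tested.

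The other 2 clade B genes inhibit proteases other than granzymes. Serpinb6a (ENSMUSG00000060147; chromosome 13, 34101901 to 34186777, minus strand), an inhibitor of cathepsin G and other serine proteases found in many tissues, was nearly flat: 44.5, 47.4 and 50.8 CPM in Th1 (lowest, median, highest), 43.2, 52.9 and 60.9 CPM in Th17, 39.9, 61.0 and 75.7 CPM in Treg, and a mean of 57.8 ± 4.62 CPM in CD8 (SD, n = 6; lowest 53.6, median 56.6). Each group overlapped its neighbour in order, and the highest mean was 1.25 times the lowest. The 1 call among the 6 comparisons was Th1 below Treg (log2 -0.31 ± 0.10, edgeR adjusted p = 0.00975). That call was lost with gene length offsets (-0.12, adjusted p = 0.281) and with only the 12 libraries of those 2 cell types (-0.24, adjusted p = 0.0783), and with only the 2 Treg libraries of WT number 3 the difference turned to 0.17 (adjusted p = 0.149). Treg was called above Th17 with total counts (Th17 minus Treg log2 -0.48, adjusted p = 7.5e-05), upper quartile scaling (-0.33, 0.00279) and only the Treg libraries of WT number 2 (-0.32, 0.000569), and below Th17 with only those of WT number 3 (0.36, 0.00332). Treg against CD8 likewise passed with total counts (0.37, adjusted p = 0.00119), upper quartile scaling (0.20, 0.0474), the WT number as a block (0.17, 0.043) and WT number 2 only (0.21, 0.0165), and the opposite way with WT number 3 only (-0.44, 0.000415). The lowest Treg value was the DMSO library, and the Treg libraries are described by WT number further on.

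Serpinb1a (ENSMUSG00000044734; chromosome 13, 33026075 to 33035168, minus strand), an inhibitor of neutrophil elastase, cathepsin G and proteinase 3, was the sole member highest in Th17. It had 675 counts in all 24 libraries. The values were 2.43, 3.86 and 4.29 CPM in Th17 (lowest, median, highest), 0.640 to 1.23 CPM in Treg, 0.209 to 1.41 CPM in CD8 and 0.224 to 0.889 CPM in Th1. All Th17 libraries lay above all others, and the other 3 groups overlapped. Th17 exceeded Treg by log2 2.01 ± 0.35 (edgeR adjusted p = 1.04e-05), CD8 by 2.30 ± 0.36 (5.65e-06) and Th1 by 2.81 ± 0.37 (4.63e-07). Th1 against Treg (log2 -0.81) did not pass, but it passed in 6 of 11 alternatives. Among these were edgeR with total counts (-1.17, adjusted p = 0.00689) or upper quartile scaling (-0.96, 0.0235), and DESeq2 (-0.82, 0.0409). Its known targets were near absent: Ctsg had 0 counts, and Elane and Prtn3 stayed at means of 0.144 CPM or less.

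Both clade A genes were highest in Treg. Serpina3g (ENSMUSG00000041481; chromosome 12, 104202504 to 104208198, plus strand) encodes SPI2A, an inhibitor of cathepsins B and L. It stood at 17.0, 20.1 and 24.1 CPM in Treg (lowest, median, highest), against 2.35 to 3.38 CPM in CD8, 1.48 to 3.61 CPM in Th1 and 1.92 to 2.82 CPM in Th17. The Treg libraries were separate from the other 18, which overlapped one another. Treg exceeded CD8 by log2 2.88 ± 0.15 (edgeR adjusted p = 3.22e-15), while CD8 against Th1 (0.20 ± 0.16, adjusted p = 0.486) and Th1 against Th17 (0.06 ± 0.17, adjusted p = 0.804) did not pass. Of its target proteases, Ctsb was at 94.2 ± 16.0 CPM in Treg against 296 ± 11.8 CPM in Th1 (Th1 over Treg by log2 1.66 ± 0.08, adjusted p = 3.91e-16). Ctsl was at 5.70 ± 0.72 CPM in Treg and 2.55 ± 0.52 CPM in Th1 (Th1 under Treg by log2 -1.16 ± 0.17, adjusted p = 1.12e-06).

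Serpina3f (ENSMUSG00000066363; chromosome 12, 104180803 to 104187388, plus strand), lies 15115 bases upstream in the same orientation. It was 11.0, 14.7 and 30.6 CPM in Treg (lowest, median, highest), 3.30, 4.76 and 6.33 CPM in Th1, 2.25, 2.80 and 5.21 CPM in CD8, and 0.0934, 0.322 and 0.768 CPM in Th17. Treg lay above all other libraries and Th17 below all others, while Th1 and CD8 overlapped. Treg exceeded Th1 by log2 1.84 ± 0.22 (edgeR adjusted p = 5.82e-08), and CD8 exceeded Th17 by 3.05 ± 0.33 (1.9e-08). Th1 against CD8 (0.69 ± 0.24) missed the threshold at adjusted p = 0.0508 and passed it with DESeq2 (0.0376), without the filter on low counts (0.00265), with gene length offsets (0.0465) and with only those 2 cell types (0.0177). The low Th17 level set the neighbours apart, since the Serpina3g libraries of Th17, Th1 and CD8 overlapped.

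The start regions of this pair are shown because the genes were both highest in Treg and differed in Th17. Capitals again mark GAAANNGAA and TTCNNNGAA on either strand; in Serpina3f the 2 matches overlap and form 1 run.
Serpina3f, chr12:104214294-104214593, plus strand: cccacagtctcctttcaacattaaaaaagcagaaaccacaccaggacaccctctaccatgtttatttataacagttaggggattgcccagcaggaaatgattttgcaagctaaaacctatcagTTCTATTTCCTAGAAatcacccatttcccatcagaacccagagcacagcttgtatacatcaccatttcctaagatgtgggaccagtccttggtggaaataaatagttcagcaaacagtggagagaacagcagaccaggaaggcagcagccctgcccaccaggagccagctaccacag
Serpina3g, chr12:104235897-104236196, plus strand: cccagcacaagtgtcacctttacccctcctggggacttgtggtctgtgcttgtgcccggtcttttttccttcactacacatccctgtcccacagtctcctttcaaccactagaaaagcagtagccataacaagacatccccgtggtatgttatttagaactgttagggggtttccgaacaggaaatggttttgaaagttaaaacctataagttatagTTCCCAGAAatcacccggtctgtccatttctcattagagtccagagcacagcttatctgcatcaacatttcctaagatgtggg
RefSeq lists a second start for Serpina3f further downstream, whose window overlaps the one shown. The first 203 bases of the Serpina3f window aligned with bases 88 to 300 of the Serpina3g window at 79.0% identity (169 of 214 columns). Within that stretch both had a match to TTCNNNGAA, TTCCTAGAA in Serpina3f and TTCCCAGAA in Serpina3g, a motif found in 8.30% of all 32851 windows. The overlapping match to GAAANNGAA was in Serpina3f alone. Neither AP-1 (TGANTCA, 7.81% of windows) nor T-box letters (GGTGTGA, 3.98%) occurred in any of the 11 windows that RefSeq gave for 8 of the 9 genes.

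Serpine2 (ENSMUSG00000026249; chromosome 1, 79771914 to 79838897, minus strand), which encodes protease nexin-1, a secreted inhibitor of thrombin and plasminogen activators, was among the most abundant members. It was 592, 643 and 651 CPM in CD8 and 381, 438 and 475 CPM in Th1 (lowest, median, highest). In Treg it was 157, 183 and 196 CPM, and in Th17 30.8, 37.2 and 41.7 CPM. The 4 groups did not overlap, in the order of Serpinb9 and Serpinb6b. CD8 exceeded Th1 by log2 0.54 ± 0.07 (edgeR adjusted p = 2.85e-06), Th1 exceeded Treg by 1.29 ± 0.07 (9.33e-15) and Treg exceeded Th17 by 2.29 ± 0.08 (7.63e-19). Of its targets, Plau, the urokinase-type plasminogen activator, was highest in Th17 at 6.21 ± 0.73 CPM against 0.389 ± 0.53 CPM in Th1 (SD, n = 6; Th1 under Th17 by log2 -3.98 ± 0.59, adjusted p = 7.65e-06). Plat and F2 did not pass the filter on low counts.

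Srgn (ENSMUSG00000020077; chromosome 10, 62329612 to 62363230, minus strand) had an order of its own. It stood at 714, 782 and 788 CPM in Th1 (lowest, median, highest) and 649, 706 and 759 CPM in CD8. In Th17 it was 281, 311 and 407 CPM, and in Treg 37.9, 43.6 and 49.3 CPM. Th1 and CD8 overlapped, Th17 lay below both and Treg far below all others. Th1 against CD8 did not pass (log2 0.12 ± 0.07, edgeR adjusted p = 0.336), CD8 exceeded Th17 by 1.11 ± 0.07 (1.02e-12) and Th17 exceeded Treg by 2.90 ± 0.08 (2.44e-20). Th17 thus held more Srgn than Treg while holding less Serpinb9, Serpinb6b and Serpine2 than Treg. Ribosomal protein genes took 2.25% of counts in Treg and 10.1% to 11.3% in the other cell types, and their part in the Srgn values was not tested. The difference between Th17 and Treg ran from log2 2.55 to 3.07 over the 12 alternatives and passed in each.

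In the F-test over the 4 cell types, 9 of 9 members passed, beside 87.4% of all genes tested, a share near that of the members. Between Th1 and Th17, 6 members were higher in Th1 and 1 was lower (24.1% and 23.2% of all genes). Between Th1 and Treg, 5 were higher in Th1 and 3 lower (37.3% and 40.1%). Between Th17 and CD8, 1 was higher in Th17 and 6 lower (22.8% and 24.3%). Between Th17 and Treg, 2 were higher in Th17 and 5 lower (36.5% and 38.3%), and between Treg and CD8, 2 were higher in Treg and 5 lower (40.2% and 37.8%). Th1 and CD8 were closest, with 0 members higher in Th1 and 3 lower (7.26% and 8.69%), namely Serpinb9, Serpinb6b and Serpine2. The median size of the log2 difference between Th1 and Th17 was 3.58 over the members and 0.32 over all genes, between Th17 and CD8 3.05 and 0.33, and between Th1 and CD8 0.51 and 0.17. Of 27 steps between neighbouring cell types in the order of the 9 members, 16 had no overlap between libraries, beside 25.2% of such steps over all genes tested. The members were chosen with earlier results of these data known. These contrasts with all genes therefore describe the 9 genes and cannot show that such genes differ more than others.

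**Figure D2:**
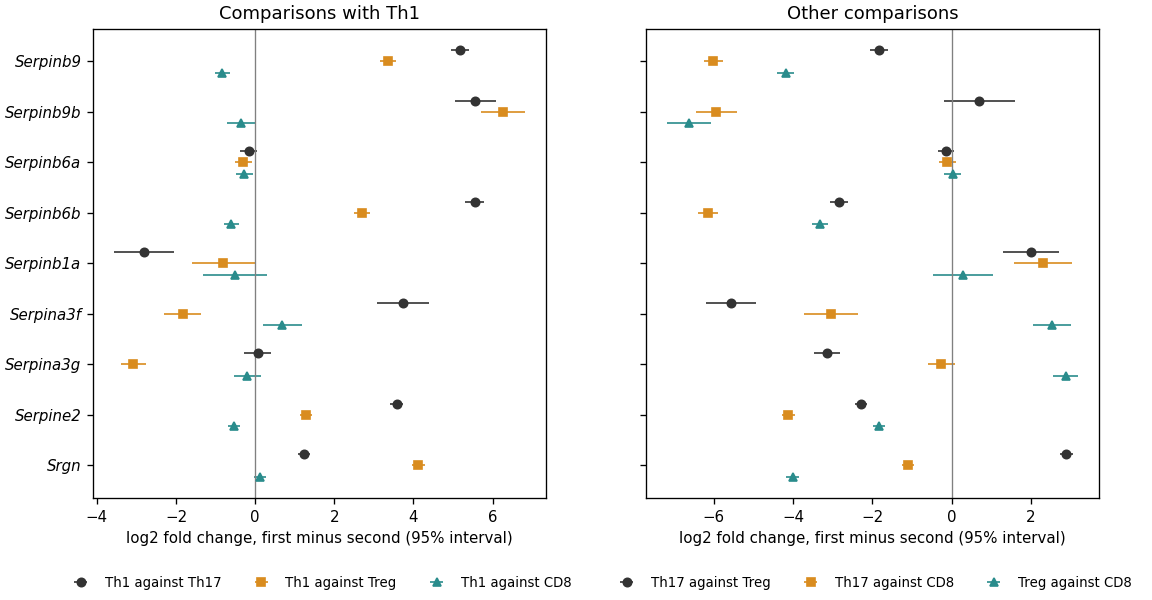
Log2 fold change of each member between cell types with its 95% interval (x axis), for the 3 comparisons with Th1 (left) and the other 3 (right); positive values are higher in the cell type named first. Serpinb6a lay within 0.31 of 0 in all 6 comparisons, while Serpinb9, Serpinb9b and Serpinb6b reached 5 or more between Th1 and Th17.

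The proteases that these serpins and serglycin handle had orders of their own. Of 11 granzyme and perforin genes, 8 passed the filter; 0 were higher and 6 lower in Th1 than in CD8 (7.26% and 8.69% of all genes), 2 were higher and 2 lower in Th1 than in Th17 (24.1% and 23.2%), and 7 were higher and 1 lower in Th17 than in Treg (36.5% and 38.3%). Gzmb, the target of Serpinb9, was 1790, 1910 and 2010 CPM in CD8 (lowest, median, highest), 141, 153 and 166 CPM in Th1, 113, 155 and 272 CPM in Th17 and 2.43, 4.66 and 5.61 CPM in Treg. Th1 and Th17 overlapped in Gzmb (log2 -0.09 ± 0.15, edgeR adjusted p = 0.653), although Serpinb9 was 36.3-fold higher in Th1. Per kilobase, Gzmb exceeded Serpinb9 by 1.03 to 1.39 times in the Th1 libraries, 8.13 to 8.72 times in CD8 and 36.3 to 102 times in Th17, and in Treg the ratio was 0.179 to 0.464. The ratio of the 2 genes had no overlap between any 2 cell types, as was already so for Serpinb9 alone. How often the ratio of other pairs of genes separates the cell types was not examined. The ratio of 102 was the Th17 library with DMSO.

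**Figure D3:**
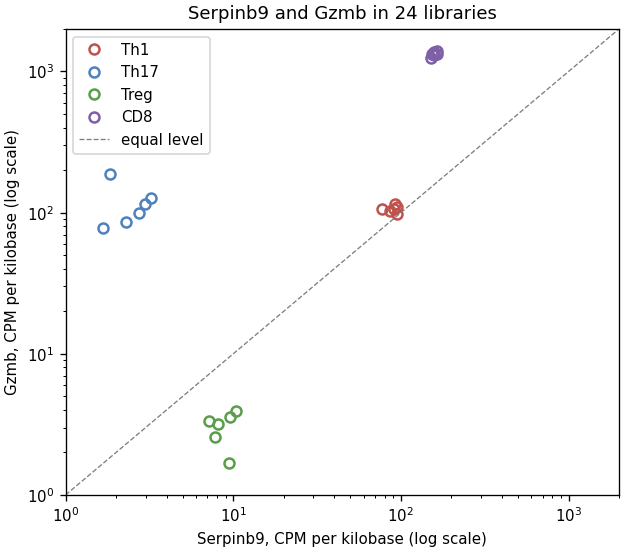
Gzmb against Serpinb9 in 24 libraries, both in CPM per kilobase of gene length on log axes, with a dashed line of equal level. The Th1 libraries lie by the line, the CD8 and Th17 libraries above it (at least 8.13 and 36.3 times) and the Treg libraries below it.

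Gzma, the target of Serpinb6b, was highest in Th17 at 9.01 ± 3.71 CPM, where Serpinb6b was lowest, and at 0.807 ± 0.57 CPM in Th1 (Th1 under Th17 by log2 -3.60 ± 0.35, edgeR adjusted p = 2.8e-09). Gzmm, the target of Serpinb9b, was highest on average in Treg, at 3.02 ± 0.77 CPM against 2.01 ± 0.52 CPM in CD8. Prf1, the pore former of the granule, was at 71.1 ± 4.86 CPM in CD8, 9.65 ± 1.19 in Th17, 7.95 ± 1.45 in Th1 and 0.521 ± 0.45 in Treg. Both Th17 and Treg thus paired low levels of the clade B granzyme inhibitors with different granzyme levels. The Cd8a level in Th17, given above, belongs beside these granzyme values.

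Genes around serglycin were called in both directions between these cell types. Of 21 genes that build or sulphate its sugar chains, 20 passed the filter; 10 were higher and 8 lower in Th1 than in Treg (37.3% and 40.1% of all genes), and 11 were higher and 5 lower in Th17 than in Treg (36.5% and 38.3%). In Th17, where Srgn was 7.48 times the Treg mean, the uronyl sulfotransferase Ust (log2 2.26 ± 0.11, edgeR adjusted p = 1.11e-15) and the chondroitin sulfotransferase Chst12 (1.93 ± 0.08, 3.48e-17) were higher than in Treg. Of the 13 tested genes of granule exocytosis, 7 were higher and 5 lower in Th17 than in Treg, beside the same 36.5% and 38.3%. The median log2 difference of the chain genes between Th1 and Treg was 0.21 and that of the exocytosis genes 0.05, against 4.12 for Srgn and -0.09 over all genes.

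Of the other 61 serpin genes, 6 passed the filter, among them Serpinc1, Serpinf1 and Serpini1. In all, 43 of the 61 had fewer than 10 counts over the 24 libraries. Of the 6 that passed the filter, 5 were higher and 1 lower in Th1 than in Treg (37.3% and 40.1% of all genes). The 1 lower was Serpinc1, which encodes antithrombin and was highest in Treg like the clade A pair. It was at 16.4 ± 3.63 CPM in Treg against 6.64 ± 0.48 in Th1 (Th1 under Treg by log2 -1.29 ± 0.15, edgeR adjusted p = 1.45e-08).

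The genes most like each member over the 24 libraries were found by Pearson correlation of log2 CPM among 11770 genes, as a description of profiles set mostly by the 4 cell types. The genes most like Serpinb9 included AW112010 (r = 0.995) and Nabp1 (0.993). Serpinb6b and Serpine2 shared Il12rb2 among their nearest 3 (r = 0.995 and 0.988), and their own correlation was 0.991. Serpina3f was most like the guanylate-binding protein gene Gbp6 (r = 0.973) and the GTPase gene Irgm2 (0.965 as the third), and Srgn was most like the glycolysis gene Pkm (0.997) and the serine synthesis gene Psat1 (0.996). After the mean of each cell type was removed, Serpinb9 and Serpinb6b still had r = 0.781 over the same 24 libraries. Serpinb6b and Serpine2 had 0.641, but Serpinb9 and Serpine2 only 0.301. Serpinb6b and Srgn, whose orders of cell types differed, had 0.72. These libraries share depth and treatment. The spread of Serpinb9 and Serpinb6b was largest in Th17, whose libraries differ in WT number (coefficient of variation 25.8% and 27.6%, against 3.44% and 3.75% in CD8). How often other pairs of genes reach such correlations was not examined.

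The second question was whether the KOR agonists moved these genes. Over the 4 cell types, 0 of 9 members differed between the 20 agonist and the 4 DMSO libraries in edgeR, as did 0.0% of all genes tested; 504 genes and 1 member had an unadjusted p under 0.05. For the abundant members the intervals were narrow. The difference, agonists minus DMSO, lay between log2 -0.13 and 0.15 for Serpine2, between -0.09 and 0.20 for Srgn, between -0.16 and 0.21 for Serpinb9 and between -0.17 and 0.21 for Serpinb6b (95% intervals). For the scarce Serpinb1a it lay between -1.06 and 0.31. A change within these bounds was not detectable. Of the granzyme, granule exocytosis, chain synthesis, target protease and other serpin lists, 0 genes were called over the cell types.

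The member with the smallest unadjusted p was Serpina3g, the cathepsin inhibitor. In Treg it stood at 24.1 CPM with DMSO and 17.0 to 21.9 CPM with the agonists, and in Th1 at 3.61 and 1.48 to 3.01 CPM. In CD8 it was 3.38 CPM with DMSO and 2.35 to 3.11 CPM with the agonists, and in Th17 2.82 and 1.92 to 2.45 CPM. All 20 agonist libraries were below the DMSO library of their cell type, which was so for 7 of the 15885 genes (0.0441%), and all 20 were above it for 5 genes. The fitted difference was log2 -0.42 ± 0.14 (95% interval -0.71 to -0.13), but the adjusted p was 0.992, so it was not called. Without the libraries of 1 cell type it was -0.33 (Th1 left out) to -0.47 (Treg left out). Each cell type had only 1 DMSO library, which the 5 agonists share.

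**Figure D4:**
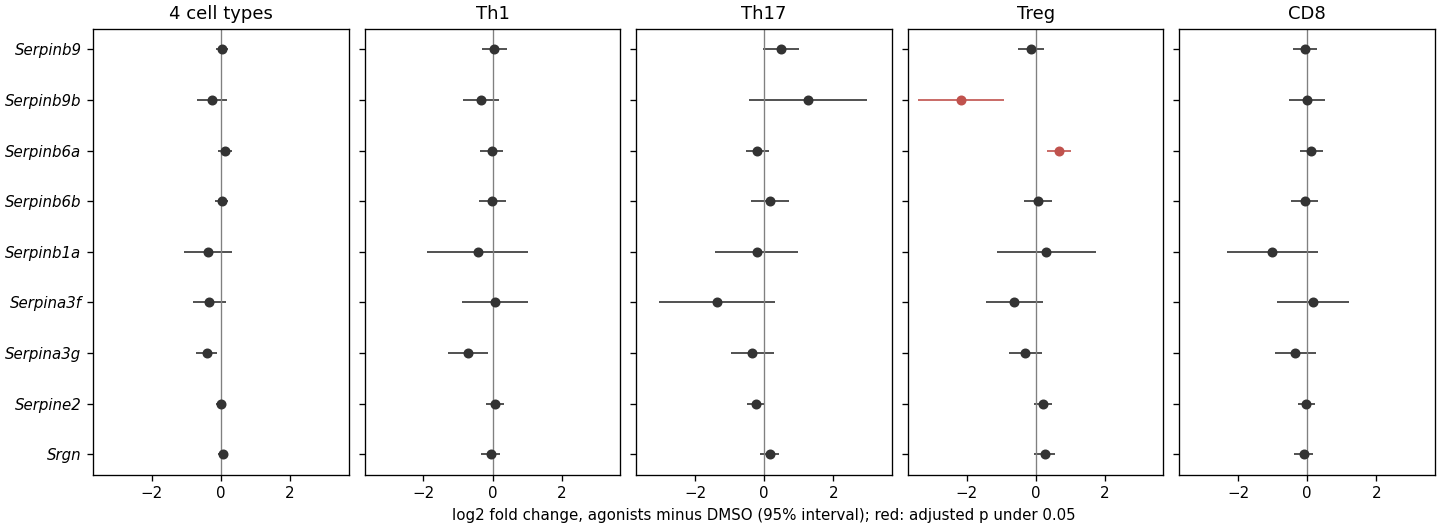
Log2 fold change of the agonists against DMSO with its 95% interval (x axis) for each member, over the 4 cell types and within each; red marks an adjusted p under 0.05. Most intervals span 0, and the 2 red points are Serpinb6a and Serpinb9b in Treg.

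Within cell types the 5 agonist libraries were taken as replicates against 1 DMSO library, taken to vary as much as they did. In edgeR 0 members were called in Th1 (0.0% of all genes), 0 in Th17 (0.0378%) and 0 in CD8 (0.0063%). In Treg 1 member was higher with the agonists and 1 lower, beside 7.64% and 1.18% of all genes. Serpinb6a was 39.9 CPM with DMSO and 49.0 CPM with WMS-200, and it was 75.7 CPM with WMS-64, 60.6 with WMS-75, 61.4 with WMS-76 and 69.9 with WMS-83 (log2 0.67 ± 0.17, adjusted p = 0.0151). Serpinb9b was 0.793 CPM with DMSO and 0.453, 0.138, 0.160, 0.0457 and 0.0493 CPM with the agonists in the same order, from 15 counts with DMSO and 10, 3, 3, 1 and 1 (log2 -2.17 ± 0.61, adjusted p = 0.0258). For both genes all 5 agonist libraries lay on the same side of DMSO.

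Both Treg differences moved with the WT number. The 2 Treg libraries of WT number 3, DMSO and WMS-200, were the lowest in Serpinb6a and the highest in Serpinb9b. Serpina3f showed the same split without being called: 25.8 and 30.6 CPM in the libraries of WT number 3, against 12.6, 14.6, 11.0 and 14.9 CPM in those of WT number 2. These 3 of 9 members had no overlap between the WT numbers, as did 37.2% of all genes tested. Foxp3 and Ikzf2, which encodes the Treg factor Helios, also split by WT number, but in opposite directions. Foxp3 was 162 and 208 CPM in the libraries of WT number 3 and 290 to 357 CPM in the others. Ikzf2 was 1140 and 1100 CPM against 540 to 601 CPM. Cd4 had no clear split, at 588 and 582 CPM against 588 to 704 CPM. These 3 genes were looked up after the member values were seen, and the other markers listed for Treg were not looked up by library. Their part in the member differences was not tested. With the WT number as a block, which leaves WMS-200 against DMSO as the only contrast in Treg, 0 members and 17 genes in all were called. Serpinb6a then differed by log2 0.30 ± 0.18 (edgeR adjusted p = 0.6), Serpinb9b by -0.80 ± 0.62 (0.713) and Serpina3f by 0.25 ± 0.41 (0.907). With only the 6 Treg libraries 0 members and 4 genes were called. For 4 of the 5 agonists, treatment and WT number cannot be told apart in Treg.

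**Figure D5:**
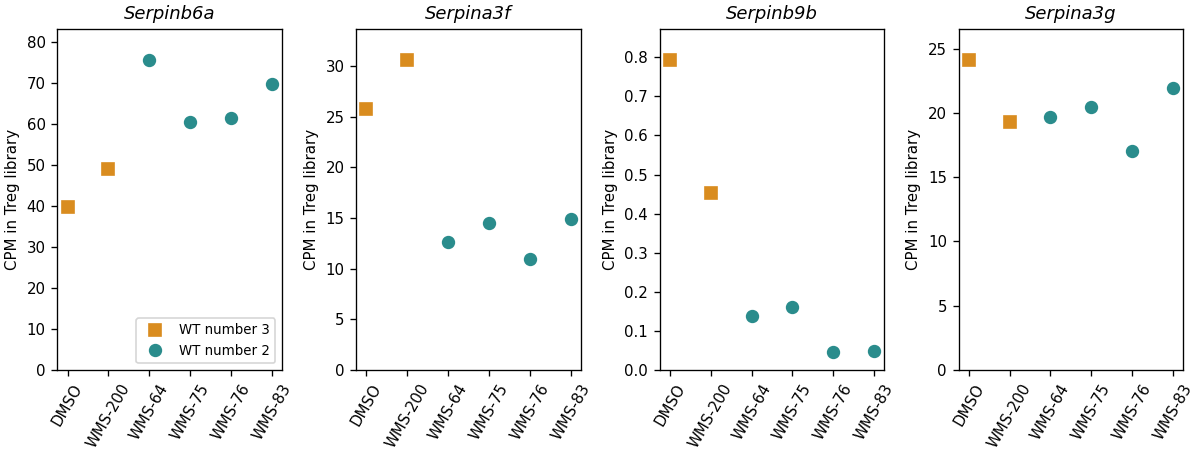
CPM of 4 members in the 6 Treg libraries by treatment; squares are WT number 3 and circles WT number 2. In Serpinb6a, Serpina3f and Serpinb9b the squares and circles do not overlap, while in Serpina3g the DMSO library is highest and WMS-200 lies among the circles.

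Whether the agonist effect differed between cell types was tested directly: 0 of 9 members passed, beside 0.176% of all genes. The smallest values were those of Serpinb6a (unadjusted p = 0.00605, edgeR adjusted p = 0.169) and Serpinb9b (0.00795, adjusted p = 0.192). Without the filter on low counts 2 members and 2.14% of all genes passed, and with DESeq2 1 member and 2.22%.

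The 5 agonists were also set against DMSO and each other at their shared dose of 0.1 µM, with 1 library per compound in each of the 4 cell types. In edgeR 0 of 45 tests of a member and a compound against DMSO passed (0.0% of all such tests over all genes), with 5 at an unadjusted p under 0.05. In the 10 pairs of compounds 0 of 90 member tests passed (0.00063% over all genes), with 6 at an unadjusted p under 0.05 and a lowest adjusted p of 0.57. The F-test among the 5 agonists called 0 members and 0 genes, with 444 genes and 0 members at an unadjusted p under 0.05. The widest pair difference was that of Serpina3f, log2 0.82 for WMS-200 over WMS-75, and over its 10 pairs the intervals reached from -0.91 to 1.45. For Serpine2 all 10 intervals lay between -0.22 and 0.32, for Srgn between -0.35 and 0.38, for Serpinb6b between -0.38 and 0.56 and for Serpinb9 between -0.30 and 0.57. The fitted difference of Serpina3g from DMSO was between log2 -0.47 and -0.37 with each compound (intervals from -0.86 to 0.02), and its 10 pair differences lay between -0.09 and 0.10 with intervals from -0.48 to 0.50.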

How the data were processed

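Per the labels' protocols, total RNA of the cultures was enriched for poly(A) RNA and sequenced. The deposited table holds whole-number read counts per gene, made by the authors; the submitters' processing notes name featureCounts, HISAT2 and fastp. Versions, genome build, annotation and strand setting: not given in the sources used here. All 24 columns matched a sample and 0 were of no sample. One library labelled Th1 by its source name and column has a title that names Th17; it was taken as Th1 and also left out as an alternative.

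Counts were filtered with filterByExpr (minimum count 10), scaled by TMM and fitted in edgeR 4.0.16 (R 4.3.3, limma 3.58.1) by the quasi-likelihood test. An additive model of cell type and treatment (15 residual degrees of freedom, biological coefficient of variation 0.133) gave the comparisons of cell types and compounds, and a model of agonist or DMSO within each cell type (16, 0.127) the rest. A call is an adjusted p under 0.05. On simulated data for 15885 genes, Th1 against CD8 recovered 89% of changes of log2 1 and 99% of log2 2. Agonists against DMSO recovered 93% and 100%. False calls were 4 and 12. Every simulated gene had the same coefficient of variation, no other difference between cell types and no WT number effect. These shares therefore do not describe comparisons confounded with the WT number or genes scarce in some cell types. Alternatives were other scalings, no filter, DESeq2 1.42.0, limma-voom, gene length offsets, a WT number block and libraries left out. The members, and the gene lists around them, were chosen with earlier results of these data known. All 9 members are named; of each list the named genes are examples with a mean of at least 2 CPM, and others were chosen for their role. Promoter windows come from RefSeq tables of GRCm38.p6. Some genes that the rules would name are not reported here.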

Additional observations from a re-analysis of the deposited data

Results flagged for a closer look

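In 3 cases 1 of the 6 libraries of a cell type lay far from the others, by a gap that chance gives in about 1 in 20 groups, and each of the 9 genes was looked at in each of 4 cell types. Serpinb9b in CD8 was 20.4 CPM with WMS-83, where the nearest other library had 26.4 CPM. Serpinb1a in Th17 was 2.43 CPM with WMS-75 against a nearest value of 3.82 CPM, and Serpina3f in CD8 was 5.21 CPM with WMS-200 against 2.95 CPM.

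For 3 genes all 5 agonist libraries lay on opposite sides of the single DMSO library in different cell types. Serpinb9b was above DMSO in Th17 and below it in Th1 and Treg (edgeR adjusted p = 0.192 for a difference of the agonist effect between cell types). In Th17 the DMSO library had WT number 2 and the agonist libraries 1 or 3, so agonist and WT number cannot be told apart there; with the WT number as a block over all libraries the Th17 difference was -1.22 (adjusted p = 0.716) in place of 1.27. Serpine2 was above DMSO in Treg and below it in Th17 (0.535), and Srgn was above it in Treg and below it in Th1 (0.684). None of these 3 tests passed.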

How the results depend on the processing

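Over the planned and added alternatives, 1180 values of single members kept their side of the threshold, 28 passed it newly and 7 no longer passed. In 3 more the direction reversed for a value called in either fit. The 1180 include values called in neither fit whose direction changed. An example is Serpinb9b with agonists in Th17, at log2 1.27 as reported and -1.22 with the WT number as a block. Of the counts of members called, 215 stayed within 1.5 times and 8 moved. The 3 reversals were all of Serpinb6a when only the Treg libraries of WT number 3 were kept, an alternative added after seeing the data: Th1 against Treg 0.17 (edgeR adjusted p = 0.149), Th17 against Treg 0.36 (0.00332) and Treg against CD8 -0.44 (0.000415). With WT number 2 only, the last 2 were called the opposite way (-0.32, 0.000569, and 0.21, 0.0165). Between Th1 and CD8 the count of 3 members became 6 without the filter (6.3% of all genes called) and 7 with only those 2 cell types (29.3%). For the agonist effect between cell types the count of 0 became 2 without the filter (2.14% of all genes) and 1 with DESeq2 (2.22%). In Treg the count of 2 members became 1 with limma-voom (7.57% of all genes), 0 with the WT number as a block (0.107%) and 0 with only the 6 Treg libraries (0.0297%). It ran from 1 (without WMS-83, 5.74%) to 3 (without WMS-200, 16.0%) when 1 agonist library was left out. Fewer libraries enter the last settings, and the causes of these moves were not tested. Total counts in place of TMM moved the median of all genes by log2 -0.36 between Th1 and Treg, -0.34 between Th17 and Treg and 0.34 between Treg and CD8. Upper quartile scaling moved them by -0.16, -0.19 and 0.18. No paired analysis by replicate number was possible because replicate numbers only name the treatments, which are already a term of the model; a WT block could not be fitted for pairs with Th1. Serpinb9b and Serpinb1a rest on few counts in some cell types, so small changes in them were not detectable.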
